A study of Homo sapiens with 6 samples.

Results

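Corneodesmosin (Cdsn) and 8 other genes of stratified epithelium were followed in RNA-seq libraries of knockdown and NC cells. The 9 members are rows of the deposited files chosen by gene ID, out of 54532 IDs listed. Their names are the Ensembl mouse names that the selection rule gives for these IDs, namely Cdsn (ENSMUSG00000039518), Krt5 (ENSMUSG00000061527), Krt14 (ENSMUSG00000045545), Krt6a (ENSMUSG00000058354), Krt17 (ENSMUSG00000035557), Ivl (ENSMUSG00000049128), Sprr1a (ENSMUSG00000050359), Pkp1 (ENSMUSG00000026413) and Trp63 (ENSMUSG00000022510). The files themselves give no names. Cdsn had been singled out in an earlier look at these data for its low level in both knockdown groups against NC. The values behind the choice of the other 8 are not recorded, so all levels against NC are given as a description, without a test.

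The study holds 6 libraries in the groups sh1, sh4 and NC, with 2 libraries in each. All are labelled as A549, a cell line established from a human adenocarcinoma of the lung, and the title states a knockdown of DSTY. The labels do not spell out sh1, sh4 or NC, and no further genotype, treatment, time or clone is given for any group. Here sh1 and sh4 are read as knockdown groups and NC as their common control, which is an assumption from the title and design text. Nothing in the labels says that the libraries of a group came from separate cultures, so p-values measure the spread between these libraries, which may be technical.

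All gene IDs carry the mouse prefix of Ensembl although the labels state human cells. Between 11826 and 11972 of these IDs reached 1 FPKM in each library. Which organism the RNA came from was not tested. The names and the group labels are used with that limit. Whether the targeted gene was lowered was not analysed here, and neither were the markers of A549 cells, since the IDs could not be matched to names. Recovered reads ranged from 14999786 to 18011798 per library. Within groups the libraries differed by a root-mean-square of 0.23 to 0.24 in log2(FPKM + 1), against 0.56 to 0.69 between groups. FPKM is the number of fragments per kilobase of gene, scaled to depth by the authors.

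As background, stratified epithelia such as the epidermis renew from a basal layer whose cells carry the keratin pair Krt5 and Krt14 and depend on the transcription factor p63, the product of Trp63. Cells that move up are joined by desmosomes, build a cornified envelope from precursors such as involucrin (Ivl) and small proline-rich proteins, and are finally held together by corneodesmosomes, whose adhesive glycoprotein is corneodesmosin. Krt6a and Krt17 are keratins of skin appendages and of wounded or stressed keratinocytes. A lung adenocarcinoma line is a simple rather than a stratified epithelium by origin.

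The list split into 3 members with clear levels and 6 near or at 0. Cdsn, Sprr1a and Pkp1 reached 1 FPKM in at least 2 libraries, the filter used for testing, which 23.4% of all listed IDs passed. The other 6 stayed under 1 FPKM in every library. Of these, Krt5 and Krt17 had no reads in any of the 6 libraries, as did 52.8% of all listed IDs. The genes that define basal keratinocytes were thus at or near 0 (Krt5, Krt14, Trp63), so the label of a stratified epithelium is not borne out by most of the list, and the results below concern single genes. Members that passed the filter only because 1 group is high would have to differ between groups, but all 3 passed in each group.

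Cdsn was lower in both knockdown groups than in NC. It had 9.10 and 10.7 FPKM in sh1 and 8.41 and 8.42 FPKM in sh4, against 83.5 and 86.4 FPKM in NC. All 4 knockdown libraries lay far below both NC libraries. The means were 9.88 ± 1.11 FPKM in sh1, 8.42 ± 0.0093 FPKM in sh4 and 84.95 ± 2.1 FPKM in NC (SD, n = 2 each). Behind these stand 407 and 503 reads in sh1, 416 and 414 reads in sh4, and 3529 and 3550 reads in NC, over a recovered gene length of 2678 bp. The level ratio of summed reads was 0.117 in sh1 relative to NC and 0.0991 in sh4 relative to NC, with 95% counting intervals of 0.109 to 0.125 and 0.0921 to 0.107. These and all later intervals on reads are exact (Clopper-Pearson for ratios, Poisson for sums) and cover counting error only. The SD of Cdsn in sh4 is smaller than counting error, since its sum of 830 reads has a 95% interval of 774 to 888 reads. That SD is therefore no measure of precision.

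Measured as log2(FPKM + 1), a scale that makes the changes of low genes look smaller, Cdsn differed from NC by -2.99 in sh1 and by -3.19 in sh4, each with an SE of 0.07. Among the 12755 tested IDs it was the 17th lowest in sh1 and the 2nd lowest in sh4. These ranks come from the values that chose the gene. With a pseudocount of 0.1 they were 62 and 70, while voom on recovered reads gave 61 and 48. By level, Cdsn stood at rank 505 and 470 among all IDs in the NC libraries. In the knockdown libraries it stood between rank 4861 and rank 5746. In bulk RNA, fewer cells that express a gene and less RNA per cell cannot be told apart.

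Pkp1, which encodes the desmosomal plaque protein plakophilin 1, was also lower in both knockdown groups. Its level was 4.27 and 4.39 FPKM in sh1 and 5.14 and 4.37 FPKM in sh4, against 16.1 and 17.0 FPKM in NC. The knockdown groups overlapped each other and lay below NC in all 4 libraries. Means were 4.33 ± 0.092 FPKM in sh1, 4.76 ± 0.54 FPKM in sh4 and 16.6 ± 0.64 FPKM in NC (SD, n = 2 each). In log2(FPKM + 1), Pkp1 differed from NC by -1.72 in sh1 and by -1.61 in sh4, each with an SE of 0.08. The ratio of summed reads was 0.262 in sh1 (95% interval 0.241 to 0.284) and 0.287 in sh4 (0.266 to 0.310). Relative to NC, the level of Cdsn was lower than that of Pkp1 in all 4 knockdown libraries. The ratio of the Cdsn level to the Pkp1 level was 2.13 and 2.43 in sh1 and 1.64 and 1.93 in sh4, against 5.18 and 5.08 in NC.

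Sprr1a, which encodes a small proline-rich precursor of the cornified envelope, was lower than NC in sh1 and higher than NC in sh4. It had 44.2 and 45.0 FPKM in sh1 and 266.2 and 254.1 FPKM in sh4, against 124.3 and 130.6 FPKM in NC. The groups did not overlap, with sh1 the lowest, NC between and sh4 the highest. Means were 44.6 ± 0.58 FPKM in sh1, 260.1 ± 8.6 FPKM in sh4 and 127.4 ± 4.4 FPKM in NC (SD, n = 2 each). The reads were 595 and 639 in sh1, 3963 and 3758 in sh4, and 1582 and 1614 in NC, for a short gene model of 806 bp.

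In log2(FPKM + 1), Sprr1a differed from NC by -1.49 in sh1 and by 1.02 in sh4, each with an SE of 0.05. The ratio of summed reads was 0.350 in sh1 (95% interval 0.328 to 0.374) and 2.04 in sh4 (1.96 to 2.13). Sprr1a was the most abundant member in every library by FPKM, which is per gene length. Its rank among all IDs was 1124 and 1097 in sh1 and 159 and 161 in sh4, against 319 and 295 in NC. Members of the small proline-rich family are similar in sequence, and how the authors' counting split reads between such copies is not given in the sources used here. The same limit holds for the keratins, above all Krt6a, which has a near-identical copy.

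**Figure D1:**
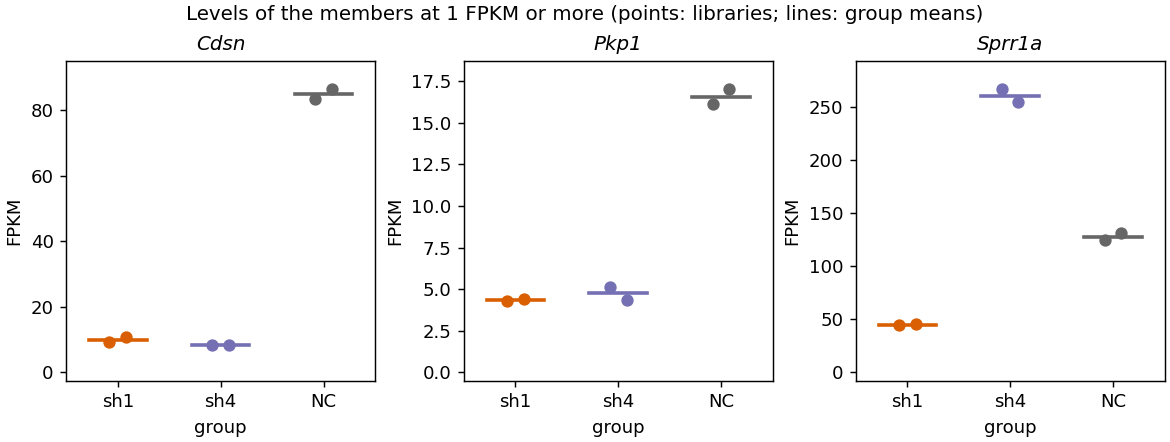
Level in FPKM (vertical axes, each from 0 with its own scale) of Cdsn, Pkp1 and Sprr1a in the groups sh1, sh4 and NC, with points for libraries and lines for group means. Cdsn and Pkp1 lie below NC in both knockdown groups, while Sprr1a is at 44.6 FPKM in sh1 and 260.1 FPKM in sh4, on either side of 127.4 FPKM in NC.

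In each comparison with NC, the libraries of the groups did not overlap for 3 of the 3 members that passed the filter. The same held for 82.3% of all tested IDs in the sh1 comparison and for 82.7% in the sh4 comparison, and since these contrasts chose at least Cdsn nothing is read from the count. The difference was at least 1 log2 unit in size for 3 of the 3 members in each comparison. Over all tested IDs this held for 10.5% in the sh1 comparison and 10.6% in the sh4 comparison. For the same reason, nothing is read from this count about the list. Over all tested IDs the median absolute difference was 0.36 log2 units in sh1 and 0.37 in sh4. Both comparisons use the same NC libraries.

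**Figure D2:**
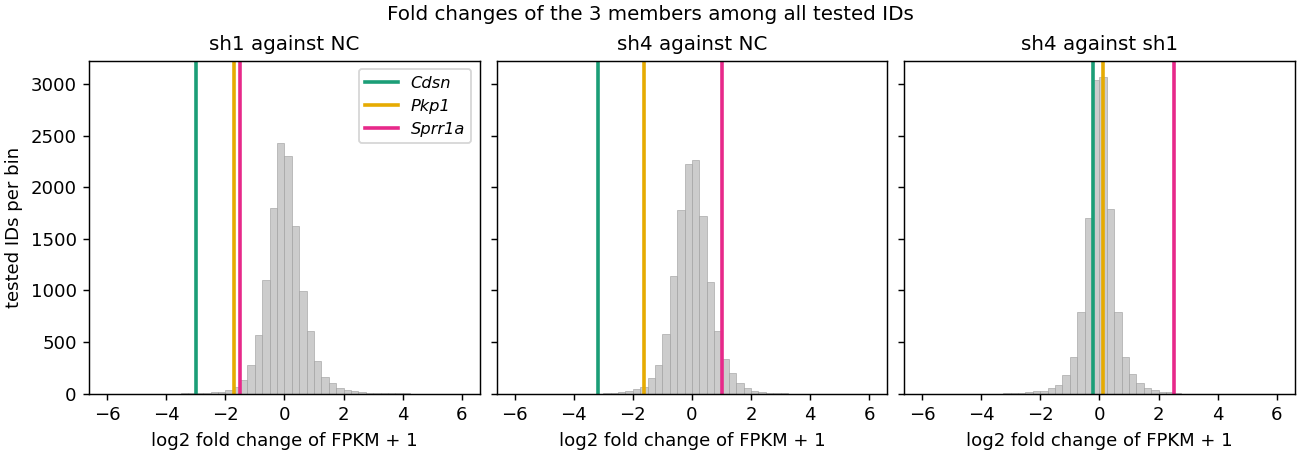
Distribution of log2 fold changes of FPKM + 1 over the 12755 tested IDs (grey bars, IDs per bin of 0.25 log2 units) in each comparison, with coloured lines for Cdsn, Pkp1 and Sprr1a. Cdsn lies in the lower tail against NC in both groups, and only the Sprr1a line lies in a tail of sh4 against sh1, at 2.52.

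The mixture of the members changed with these shifts. Summed over the 9 members, the level was 58.1 and 60.6 FPKM in sh1 and 280.9 and 267.9 FPKM in sh4, against 224.2 and 234.2 FPKM in NC. Sprr1a made up 76.1% and 74.2% of that sum in sh1 and 94.8% in each sh4 library, against 55.5% and 55.7% in NC. The share of Cdsn was 15.7% and 17.6% in sh1 and 2.99% and 3.14% in sh4, against 37.2% and 36.9% in NC. Within a library, the Sprr1a level was 4.86 and 4.22 times the Cdsn level in sh1 and 31.7 and 30.2 times in sh4, against 1.49 and 1.51 times in NC. These ratios do not depend on the scaling between libraries.

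**Figure D3:**
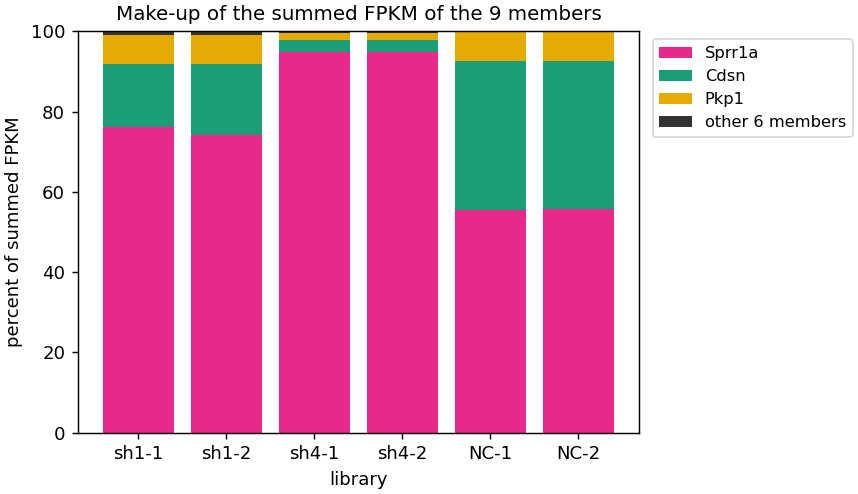
Share of the summed FPKM of the 9 members (vertical axis, percent) taken by Sprr1a, Cdsn, Pkp1 and the other 6 members in each library. The Cdsn share is 2.99% and 3.14% in sh4 and 15.7% and 17.6% in sh1, against 37.2% and 36.9% in NC.

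Trp63 was detected in all 6 libraries at a low level. It had 0.157 and 0.183 FPKM in sh1 and 0.503 and 0.617 FPKM in sh4, against 0.121 and 0.140 FPKM in NC. The sh4 libraries lay above all others, and sh1 lay above NC by a small margin. The reads were 22 and 27 in sh1, 78 and 95 in sh4, and 16 and 18 in NC. The ratio of summed reads against NC was 1.31 in sh1 and 4.30 in sh4. The 95% counting intervals were 0.827 to 2.09 in sh1, which spans equality, and 2.96 to 6.41 in sh4. They leave out the spread between libraries and are no test.

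Krt14, the basal type I keratin, was also highest in sh4, on very few reads. It had 2 and 0 reads in sh1 and 20 and 13 reads in sh4, against 4 and 2 reads in NC. Both sh4 libraries were above all others, at 0.616 and 0.403 FPKM. The sh4 sum of 33 reads has a 95% interval of 22.7 to 46.3 reads, and the NC sum of 6 reads one of 2.2 to 13.1 reads. The ratio was 4.65 in sh4 against NC (1.92 to 13.6) and 0.302 in sh1 against NC (0.0298 to 1.69).

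Krt5, the type II partner with which Krt14 forms filaments, had 0 reads in all 6 libraries, of 100967287 reads in all. A count of 0 was taken at a set limit of 3 reads, or 0.0297 RPM over all libraries, where RPM scales reads to a depth of 1000000. The exact 95% Poisson interval for 0 reads is wider and reaches 3.69 reads. Krt17 was at 0 reads as well, with the same limits. Krt6a had 1 read, in sh4 replicate 2, and no fold is given for it. Krt14, Trp63 and Krt5 together came to 24 and 27 reads in sh1 and 98 and 108 reads in sh4, against 20 in each NC library. In every library most of these reads were of Trp63, so the sum mainly repeats that gene. It is not scaled for length or depth.

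Ivl, an envelope precursor like Sprr1a, was found almost only in sh1. It had 10 and 14 reads in sh1 and 0 and 1 read in sh4, against 0 reads in both NC libraries. This is 0.311 and 0.413 FPKM in sh1, the group in which Sprr1a was lowest. With the NC sum of 0 taken at the limit of 3 reads over the group, the Ivl level in sh1 was 7.25 times that limit. This takes the sh1 sum of 24 reads as exact, although it has a 95% interval of 15.4 to 35.7 reads. The value is therefore not a strict lower bound. In sh4 both the count and the NC count were under the limit of 3 reads, so no fold is given.

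**Figure D4:**
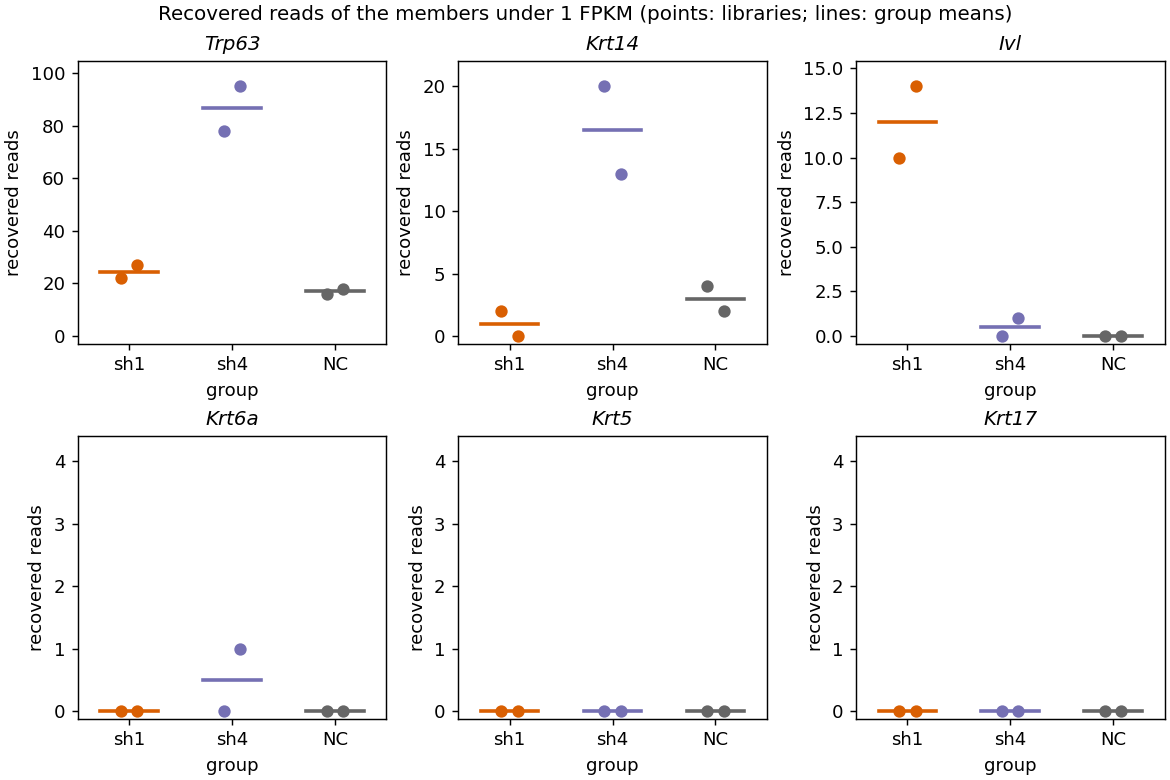
Recovered reads per library (vertical axes, each with its own scale) of the 6 members under 1 FPKM in the groups sh1, sh4 and NC, with points for libraries and lines for group means. Trp63 and Krt14 are highest in sh4, at 78 and 95 and at 20 and 13 reads, Ivl is highest in sh1 at 10 and 14 reads, and Krt6a, Krt5 and Krt17 are at 0 or 1 read.

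The direct comparison of sh4 with sh1 asked where the knockdown groups differ. This contrast did not choose Cdsn, but its results were known when the list was made. Whether they chose other members is not recorded. The p-values of members in this contrast therefore describe differences beside the spread of libraries and are no independent support. The contrast was tested by limma on log2(FPKM + 1) over all 12755 IDs, with Benjamini-Hochberg adjustment. It equals the difference between the effects against NC. Limma takes part of the spread of each ID from the other IDs. Small p-values on 2 against 2 libraries therefore rest partly on those other IDs. Sprr1a was higher in sh4 than in sh1 by 2.52 log2 units (SE 0.05, adjusted p = 5.37e-13 by limma, n = 2 against 2). This was the 12th highest difference of all tested IDs. By summed reads Sprr1a was 5.83 times as high in sh4 as in sh1 (95% interval 5.49 to 6.20).

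Cdsn differed little between the knockdown groups. It was lower in sh4 by 0.20 log2 units (difference -0.20, SE 0.07, adjusted p = 0.018 by limma). The call was lost, among others, without sh1 replicate 2 (-0.10, adjusted p = 0.264), without sh4 replicate 1 (-0.20, adjusted p = 0.0588) and without sh4 replicate 2 (-0.21, adjusted p = 0.0545). Without sh1 replicate 1 the difference was -0.31, and over all alternatives the adjusted p ranged between 0.00339 and 0.264. For Pkp1 the difference was 0.11 (SE 0.08, 95% interval -0.06 to 0.27, adjusted p = 0.244 by limma), so neither equality nor a change of that size is shown. Without sh4 replicate 2, the lower of the sh4 libraries, it was 0.20 with an adjusted p of 0.0428, and without sh4 replicate 1 it was 0.011. The adjusted p of Pkp1 ranged between 0.0264 and 0.918 over all alternatives. Of the 3 members tested, 2 were called, beside 56.0% of all tested IDs, so the count itself is near the background.

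**Figure D5:**
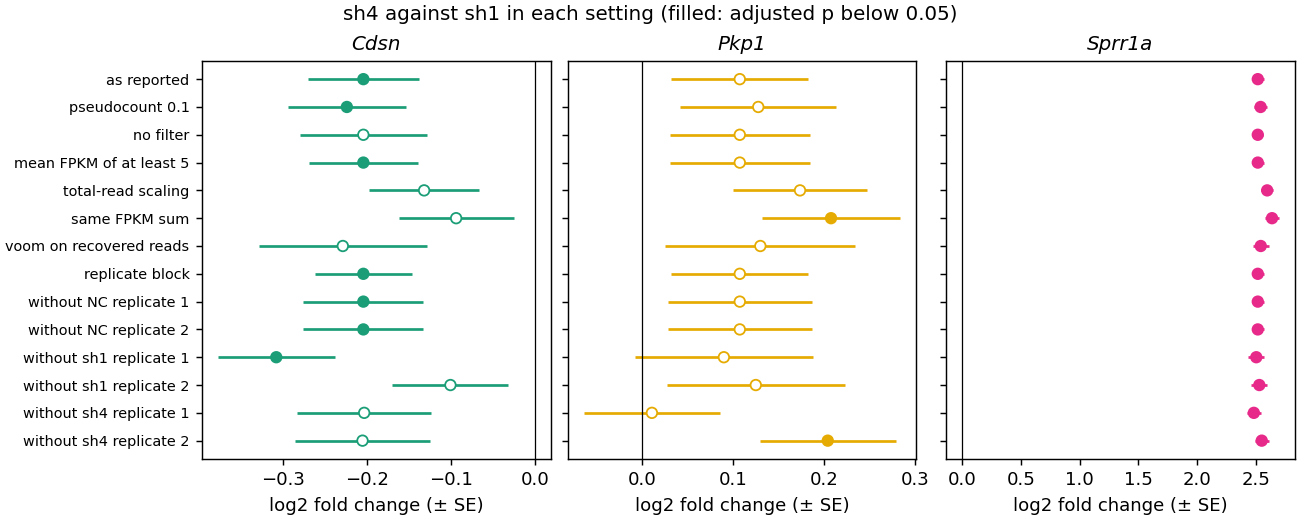
Log2 fold change of sh4 against sh1 (horizontal axes, bars are SE) for Cdsn, Pkp1 and Sprr1a as reported and with other pseudocounts, filters, scalings or libraries, filled where the adjusted p was below 0.05. The Sprr1a values lie between 2.48 and 2.64, while the calls for Cdsn and Pkp1 change with the setting.

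Of the members under 1 FPKM, Trp63 could be compared between sh4 and sh1 by voom and limma on recovered reads, over 18362 IDs with 10 or more reads in sum. This test was added after the values were seen. Trp63 was higher in sh4 by 1.69 log2 units (SE 0.31, adjusted p = 2.52e-05 by voom and limma). It was 1.55 to 1.84 with any 1 library left out, and by this test 45.5% of the 18362 IDs differed between the groups. On log2(FPKM + 1) without a filter the Trp63 difference was 0.41, and the adjusted p ranged between 4.69e-06 and 0.0131 over these alternatives and the replicate block.

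Krt14 and Ivl would reach 10 reads only through the group in which they are high, since Krt14 had 8 reads outside sh4 and Ivl had 1 read outside sh1. A test behind that filter would be bound to find a difference. They were therefore compared by limma on log2(FPKM + 1) over all 25747 IDs above 0 in any library. Of these IDs, 24.6% differed between sh4 and sh1. This fit, too, was chosen for Krt14 and Ivl after the values were seen. Krt14 was higher in sh4 by 0.54 (SE 0.10, adjusted p = 0.018), and the call was lost in all fits with 1 library left out except that without sh4 replicate 2 (0.44 to 0.64, adjusted p between 0.0295 and 0.107). Ivl was lower in sh4, with a difference of -0.43 (SE 0.06, adjusted p = 0.00966). That call was lost without sh4 replicate 1, where the difference was -0.40. The only Ivl read outside sh1 was in sh4 replicate 2. Without that library Ivl entered the fit only through sh1, so that fit is no support for the call. With the replicate block the adjusted p was 0.0157 for Krt14 and 0.0215 for Ivl. In this fit the spread is estimated together with IDs near 0, and the pseudocount makes both differences look small. By summed reads Krt14 was 15.4 times as high in sh4 as in sh1, on 33 and 2 reads, with a 95% counting interval of 3.93 to 132. For Ivl the ratio of sh4 to sh1 was 0.0388, on 1 and 24 reads, with an interval of 0.000945 to 0.238.

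The IDs most like Cdsn were sought among the 7691 tested IDs that averaged at least 5 FPKM, by the root-mean-square difference of centred log2(FPKM + 1) over the 6 libraries. The nearest was ENSMUSG00000107350, at 0.285 log2 units. It had 3.96 and 3.34 FPKM in sh1 and 2.39 and 1.87 FPKM in sh4, against 23.9 and 22.5 FPKM in NC. Next was ENSMUSG00000029378, at 0.327 log2 units, with 30.3 and 30.6 FPKM in sh1 and 32.0 and 28.8 FPKM in sh4, against 426.9 and 410.3 FPKM in NC. Both share the low level in all 4 knockdown libraries, and neither ID is named by the tables used here.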

How the data were processed

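RNA was profiled in 6 libraries labelled sh1, sh4 and NC. RNA was extracted with Trizol, per the labels' protocols. Alignment with HISAT2 2.0.5 and the genome build hg18 are listed per the submitters' processing notes. That build is human and does not match the mouse gene IDs of the deposited values, so the genome behind these values is not settled. For the counter, annotation and strand setting, no statement is given in the sources used here. The authors deposited 1 FPKM value per gene ID and library, per the file headers. Of 54532 IDs, 54532 have the mouse prefix and 0 matched the human gene name table, so the 13 gene lists (195 entries) chosen for neighbouring pathways, junctions and cell type markers could not be matched and were not analysed.

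Whole reads and gene lengths were recovered from the FPKM steps. For 25747 of the 25747 IDs above 0 they rebuilt every value to within 1e-06 FPKM plus 1e-07 of the value. With few reads the recovered count is the smallest that fits. The denominators are proportional to median-of-ratios size factors, a step the labels do not state. Files held FPKM, so limma 3.58.1 (R 4.3.3) was fitted to log2(FPKM + 1) of all 6 libraries, with 3 residual degrees of freedom, robust variance and a trend on mean reads, over IDs that reached 1 FPKM in 2 or more libraries. P-values were Benjamini-Hochberg adjusted over all IDs tested, with a threshold of 0.05. The procedures were tested on simulated data. All 9 members are named, with up to 2 IDs nearest to Cdsn. Members, lists and tests were chosen with earlier results of these data known. The alternatives were another pseudocount, other filters and scalings, voom, a replicate block and leaving out each library.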

Additional observations from a re-analysis of the deposited data

Results flagged for a closer look

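Differences between the effects of sh4 and sh1 against NC are given here for the members in which the direct test of sh4 against sh1 passed the threshold. The list was made with results of that contrast known, so these calls are no independent support. Such differences are common in these data, with 56.0% of 12755 IDs by limma, 45.5% of 18362 by voom and 24.6% of 25747 by limma without a filter. Both effects use the same NC libraries, which cancel in the difference. By limma, the sh4 effect minus the sh1 effect on the log2 scale was 2.52 for Sprr1a, whose level was lower than NC in both sh1 libraries and higher than NC in both sh4 libraries. It was -0.20 for Cdsn, a difference that several alternatives did not keep past the threshold. In the voom test on recovered reads, added after the values were seen, it was 1.69 for Trp63. In the fit without a filter, chosen for these genes after the values were seen, it was 0.54 for Krt14 and -0.43 for Ivl. These values are on log2(FPKM + 1), with at most 33 reads per group. Both of these calls were lost with some libraries left out. The voom value of Trp63 is on another scale, and in the fit without a filter Trp63 was at 0.41.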

How the results depend on the processing

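The counts of tested IDs called stayed within 1.5 times their values of 8361 (sh1 against NC), 8688 (sh4 against NC) and 7139 (sh4 against sh1) in all alternatives run. The shares called moved more, since the number of IDs tested differed. For sh4 against sh1 the share was 56.0% of 12755 IDs as reported, 45.5% of 18362 by voom and 24.6% of 25747 without a filter. In each scaling and with any 1 library left out, 3 members passed the filter. The log2 fold changes of Cdsn, Pkp1 and Sprr1a kept their sign in every alternative, in all 3 comparisons. Sprr1a between sh4 and sh1 kept its call in each, with a range of 2.48 to 2.64. The Cdsn call between sh4 and sh1 was lost with no filter (-0.20, adjusted p = 0.138), total-read scaling (-0.13, adjusted p = 0.105), rescaling to the same FPKM sum (-0.094, adjusted p = 0.26) and voom (-0.23, adjusted p = 0.0567, or 0.0618 over IDs with 10 or more reads). Leaving out 1 library gave -0.31 to -0.10 for Cdsn, and 0.011 to 0.20 for Pkp1. The Pkp1 difference passed the threshold after rescaling to the same FPKM sum (0.21, adjusted p = 0.0264). That rescaling shifted the median of sh4 against sh1 by 0.107 log2 units over all tested IDs, and relative to the shift the differences were -0.20 for Cdsn, 0.10 for Pkp1 and 2.53 for Sprr1a. Calls higher in sh4 than in sh1 made up 52.8% as deposited, 62.2% with total-read scaling and 67.1% with the same FPKM sum. The correlation of deviations between libraries of 1 number was -0.01 (sh1, NC), 0.12 (sh4, NC) and -0.02 (sh4, sh1), so the numbers do not establish pairs. A replicate block gave counts of 8503, 8836 and 7345, in the order above, and the differences between sh4 and sh1 were -0.20 for Cdsn, 2.52 for Sprr1a and 0.11 for Pkp1, with no call changed, nor for Krt14, Ivl and Trp63 in their own fits. A group left with 1 library takes its spread from the other groups. Other causes of lost calls were not tested. No fold is given where both groups compared had 3 reads or fewer. Folds of Krt14 and Ivl that rest on 1 or 2 reads in a group have wide counting intervals, so their size is uncertain. Gene list counts were not run, since no symbol matched an ID.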
